A study of Homo sapiens with 21 samples.

Results

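The mitosis genes are 50 genes whose products enter, carry out and end cell division, and their transcripts were followed through the differentiation of human induced pluripotent stem cells (iPSCs) into cardiomyocytes (CMs). They were chosen by name, from a fixed list of cyclins, mitotic kinases, checkpoint proteins, centromere proteins, kinesins, cytokinesis factors and condensins, and every transcript of these genes in 6 deposited result tables was taken. The tables hold 4 stage transitions and 2 comparisons of UBE2B-/- CMs with wild-type (WT) CMs. Of the 50 genes, 48 had a transcript listed in at least 1 table, beside 11851 genes in all. AURKA and PRC1 were listed in none. HMMR entered the list with the remark that it is FOXM1-independent, and is treated here as the gene HMMR.

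Poly-A RNA came from PGP1 cells, an established human iPSC line, at the iPSC stage and after differentiation to mesoderm (M), cardiac mesoderm (CMes), cardiac progenitors (CP) and CMs, with 3 WT libraries at each of the 5 stages. The replicates of a stage are separate plates with staggered starts. CMs were taken from beating wells that had been selected in lactate, a medium in which cardiomyocytes outlast other cells. The 6 remaining libraries are CMs of 2 UBE2B-/- lines, UBE2B-/-1 and UBE2B-/-2, each made in a separate CRISPR experiment in the same iPSCs and each derived from a picked colony. UBE2B encodes a ubiquitin-conjugating enzyme that acts on histone H2B. Both lines carried the mutation from the iPSC stage on, so the comparison with WT CMs covers whatever it did during differentiation as well as in CMs. Per the authors' methods, more cells were plated before differentiation for the UBE2B-/- lines than for WT. The part of plating density therefore cannot be told apart from that of the genotype.

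The values are those of the authors' Sleuth fits. Each listed transcript has an effect with a standard error (SE), a Wald-test p-value and a q-value. The q-value is the Benjamini-Hochberg adjustment across the 65457 to 71328 transcripts tested per comparison. Only transcripts with a q-value of at most 0.05 are in the tables. A transcript is said to have fallen or risen when it was listed, and it was called when the absolute effect was also at least 0.585, which is log2(1.5). Because the effect is a natural log, this limit amounts to a 1.79-fold change, and a limit of 1.5-fold was the alternative. Changes are given as log2 values, later stage minus earlier stage or line minus WT. Group levels are mean estimated counts, back-transformed from the log scale. They are not corrected for transcript length, so they are compared between groups and not between genes. Values per library and library depth were not in the tables, and a transcript that is not listed may have changed by less than the test could detect or may not have been tested at all. A gene with several listed transcripts is described by the one with the highest mean.

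Mitosis is driven by CDK1 bound to A- and B-type cyclins. CDC25 phosphatases activate the kinase, Polo and Aurora kinases build the spindle, and the BUB and MAD proteins hold back the anaphase-promoting complex and its activator CDC20 until all kinetochores are attached. Most of these genes are transcribed late in the cell cycle. In resting cells the DREAM complex binds their promoters at the cell cycle genes homology region (CHR) and represses them, and in cycling cells the MYBL2-MuvB complex and FOXM1 use the same element, often next to CCAAT boxes that bind NF-Y. Human cardiomyocytes leave the cell cycle as they mature, whereas pluripotent cells divide quickly.

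Promoter sequences are shown for letters that many members share near their transcription starts. Whether these letters bear on the changes given below was not tested. RefSeq windows on GRCh38.p14, from 250 bases before to 50 bases after a start, were matched for 44 of the 50 genes in 57 windows. The windows of AURKA, BIRC5, BUB3, RACGAP1, TPX2 and TTK were not among them. The CHR letters TTTGAA, read on both strands, were in 36 of the 57 windows (63.2%), against 15.2% of all 35116 windows of the same length. CCAAT on either strand was in 37 windows (64.9%), against 34.6% of all windows. Both were present in 26 windows (45.6%), against 5.90% of all windows. The E2F-like words TTTCCCGC, TTTGGCGC and GGCGGGAA were searched as 1 group on both strands and were in 5 windows (8.77%), against 4.59% of all windows. The CHR matches lay at a median of 28 bases before the start, and the CCAAT matches at a median of 87 bases before it. The promoters of CDC20, CCNB2, PLK1, CDK1 and MKI67, with both elements, are printed below from 130 bases before to 20 bases after the start, with CHR and CCAAT letters in either orientation in capitals. That of CENPE, which encodes a kinetochore motor, follows as one in which neither word occurred. In MKI67 a CHR match and a reverse CCAAT match overlap. These matches describe letters and not bound sites.
CDC20 promoter, chr1:43358851-43359000, plus strand: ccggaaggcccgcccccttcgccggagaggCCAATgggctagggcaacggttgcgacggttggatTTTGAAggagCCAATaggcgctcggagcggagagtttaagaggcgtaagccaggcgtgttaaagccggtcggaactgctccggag
CCNB2 promoter, chr15:59105016-59105165, plus strand: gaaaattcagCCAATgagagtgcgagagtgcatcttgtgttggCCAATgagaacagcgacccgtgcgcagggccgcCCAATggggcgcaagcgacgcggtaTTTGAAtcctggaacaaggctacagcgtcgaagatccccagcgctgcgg
PLK1 promoter, chr16:23678759-23678908, plus strand: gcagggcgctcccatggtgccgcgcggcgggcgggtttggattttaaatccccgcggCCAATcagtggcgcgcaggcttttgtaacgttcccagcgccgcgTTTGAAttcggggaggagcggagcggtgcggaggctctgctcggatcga
CDK1 promoter, chr10:60778348-60778497, plus strand: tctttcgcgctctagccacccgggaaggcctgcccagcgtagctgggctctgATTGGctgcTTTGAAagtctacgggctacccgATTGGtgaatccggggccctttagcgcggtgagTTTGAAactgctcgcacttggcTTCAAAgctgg
MKI67 promoter, chr10:128126404-128126553, minus strand: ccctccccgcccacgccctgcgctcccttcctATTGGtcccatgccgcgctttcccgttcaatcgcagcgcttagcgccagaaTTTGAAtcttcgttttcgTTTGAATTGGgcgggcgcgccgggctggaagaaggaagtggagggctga
CENPE promoter, chr4:103198324-103198473, minus strand: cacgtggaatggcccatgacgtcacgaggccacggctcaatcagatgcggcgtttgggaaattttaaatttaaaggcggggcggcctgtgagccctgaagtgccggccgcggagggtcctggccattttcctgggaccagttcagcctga

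**Figure D1:**
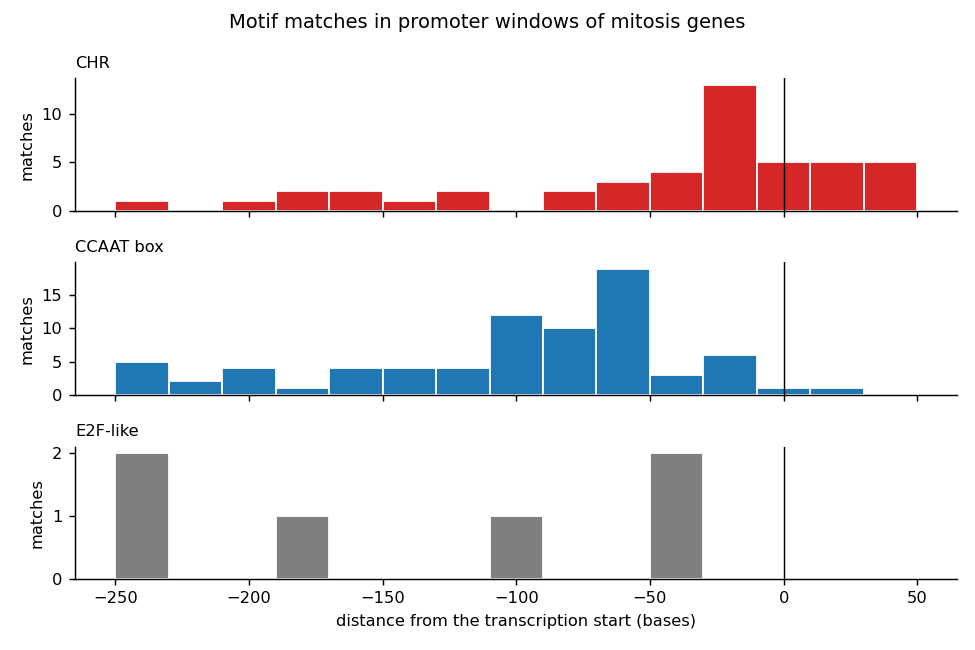
Number of motif matches by distance from the transcription start in bases (horizontal axis) in the 57 promoter windows of 44 mitosis genes, in bins of 20 bases, with a panel each for CHR, CCAAT box and E2F-like words. CHR matches gather just before the start, at a median of -28, and CCAAT matches lie further upstream, at a median of -87.

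The first 2 transitions moved few members, and in both directions. From iPSC to M, 6 genes fell and 3 rose among the 50, in 6 and 5 transcripts. Set against the 438 annotated member transcripts these are 1.37% and 1.14%, and 2.59% of all tested transcripts were listed lower and 2.25% higher. At every transition the bases of these shares differ, since an annotated transcript may not have been tested. The listed transcripts also include second identifiers of KIF15 that are absent from the annotation. Of the 48 members listed anywhere 12.5% fell and 6.25% rose, beside 11.8% and 10.2% of all 11851 such genes. Changes past the fold limit were 1.62% lower and 1.24% higher of all transcripts, and among the members 0 genes were called lower and 1 was called higher. All 11 listed member transcripts had an unadjusted p under 0.05 with a t distribution, but the q-value limit ensures this.

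Among the genes that fell from iPSC to M, ASPM, a spindle pole protein of dividing progenitors, went from 2830 to 1710 estimated counts (log2 change -0.73, SE 0.11, q = 8.15e-09). TOP2A, the topoisomerase that untangles replicated chromosomes, went from 14189 to 9887 (log2 change -0.52, SE 0.12). CENPF, a large protein of the outer kinetochore, changed by -0.46 (SE 0.11) and CDK1 by -0.45 (SE 0.13). ECT2, the exchange factor that activates RhoA at the division plane, changed by -0.48 (SE 0.13), and KIF23, a kinesin of the central spindle, by -0.51 (SE 0.14). The 3 genes that rose were BUB1, the checkpoint kinase (4056 to 5360 estimated counts, log2 change 0.40, SE 0.11), KIF15, a spindle kinesin (log2 change 0.53, SE 0.13), and NCAPG, a condensin subunit (log2 change 0.57, SE 0.14). NCAPG was listed here only through a transcript annotated for nonsense-mediated decay. The single call was a second BUB1 transcript, ENST00000466333.5, annotated as a retained intron on chromosome 2 of GRCh38 from 110642114 to 110678028, which went from 1.54 to 286 estimated counts (log2 change 7.14, SE 2.04, q = 0.0141). Its low starting level makes the size of that change depend on the authors' pseudocount of 0.5.

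From M to CMes, 11 genes fell and 5 rose, in 13 and 6 transcripts. Set against the annotated member transcripts these are 2.97% and 1.37%. On the unlike base of all tested transcripts, 4.16% were listed lower and 5.15% higher. Of the members listed anywhere 22.9% fell and 10.4% rose, beside 18.2% and 21.6% of all such genes. The members called were 3 lower and 1 higher, beside a background of 2.65% lower and 3.81% higher. Centred on the median of all listed transcripts, which was 0.57 at this transition, the split was 11 lower and 1 higher. BUB1 fell from 5734 to 2949 estimated counts (log2 change -0.96, SE 0.12, q = 2.58e-13), the largest change relative to its error at this transition. BUB1B, the checkpoint protein BUBR1, went from 4423 to 2958 (log2 change -0.58, SE 0.12), and CDC20 from 4014 to 2690 (log2 change -0.58, SE 0.19). All 3 mitotic kinases that were listed fell: AURKB from 1416 to 874 estimated counts (log2 change -0.69, SE 0.16), PLK1 from 2953 to 2226 (log2 change -0.41, SE 0.12) and PLK4, which licenses centriole duplication, from 154 to 52.4 (log2 change -1.54, SE 0.52). The other 2 calls were lower BUB1 and a CENPE transcript, ENST00000265148.7, which went from 1282 to 483 (log2 change -1.41, SE 0.34). CDC25A, HMMR, KIF15 and KIF2C also fell, by 0.45 to 0.57 on the log2 scale.

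The 5 genes that rose from M to CMes were MKI67, CDK1, ASPM, NUSAP1 and SMC4. MKI67, whose product Ki-67 coats mitotic chromosomes and is the usual stain for cycling cells, went from 2354 to 3597 estimated counts (log2 change 0.61, SE 0.20, q = 0.0275). CDK1 went from 1843 to 2629 (log2 change 0.51, SE 0.13). NUSAP1, a microtubule-bundling protein of the spindle, went from 569 to 1003 in its main transcript (log2 change 0.82, SE 0.21), and SMC4, a core condensin subunit, changed by 0.40 (SE 0.13). The call was NUSAP1 transcript ENST00000558123.5, which was listed at 0 at M and at 31.2 estimated counts at CMes (q = 0.0323). CDK1 and ASPM, which rose here, had fallen from iPSC to M, and BUB1 and KIF15 did the opposite. Both transitions share the 3 M libraries, so a high or low level in those libraries enters both with opposite sign.

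From CMes to CP the members moved in 1 direction. Of the 50 genes, 37 fell and 0 rose, in 47 transcripts. Set against the 438 annotated member transcripts, those 47 are 10.7%. On the unlike base of all tested transcripts, 5.08% were listed lower and 5.46% higher. Of the members listed anywhere 77.1% fell, beside 23.5% of all such genes. The median change of the 37 genes was -0.72, from -1.38 to -0.31, with a median SE of 0.12. Over all 2782 genes listed lower the median was -0.79. At the 1.79-fold limit 13 genes had a called transcript, all lower, and at a limit of 1.5-fold 29 had one. Centred on the median of all listed transcripts, 35 were called lower. At the 1.79-fold limit the background was 2.63% of all transcripts called lower and 3.8% called higher. Of the 13 genes, 9 were called through the transcript that speaks for the gene.

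All 5 checkpoint genes fell. BUB1 went from 2967 to 1350 estimated counts (log2 change -1.14, SE 0.11, q = 6.99e-23), the largest change relative to its error. BUB1B went from 2977 to 1619 (log2 change -0.88, SE 0.10). CDC20 went from 2707 to 1647 (log2 change -0.72, SE 0.10). MAD2L1, which makes the checkpoint complex that binds CDC20, changed by -0.52 (SE 0.11), and BUB3 by -0.54 (SE 0.12). Among the cyclins and their kinase, CCNB1 fell in transcript ENST00000506572.5 from 2300 to 1157 (log2 change -0.99, SE 0.11, q = 4.83e-18), and its other listed transcript, ENST00000256442.10, from 1480 to 780 (log2 change -0.92, SE 0.12). CCNA2, CCNB2, CCNF and CDC25A changed by -0.72 to -0.54. CDK1 changed least of the 37 listed members, from 2646 to 2128 estimated counts (log2 change -0.31, SE 0.10, q = 0.0176). TOP2A was close to it, from 13193 to 10208 (log2 change -0.37, SE 0.12).

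The other groups held members that lost more. HMMR, a spindle protein that binds hyaluronan, fell from 1448 to 557 estimated counts (log2 change -1.38, SE 0.19), and NUSAP1 from 1009 to 422 (log2 change -1.26, SE 0.22). MKI67 went from 3620 to 1549 in transcript ENST00000368653.7 (log2 change -1.22, SE 0.17, q = 1.08e-10), and KIF15 from 617 to 278 (log2 change -1.15, SE 0.16). Of 6 centromere and kinetochore genes 5 fell, among them CENPF, from 7694 to 4493 (log2 change -0.78, SE 0.10), and CENPI, by 0.95. CENPE, NDC80 and NUF2, the latter 2 of the microtubule-binding NDC80 complex, changed by -0.83, -0.74 and -0.58. Of 9 kinesins 6 fell, with KIF11, the motor that separates spindle poles, going from 3691 to 2271 (log2 change -0.70, SE 0.10), and KIF18A, KIF20A, KIF20B and KIF4A by -0.84 to -0.70. Of the spindle assembly proteins, TPX2, which activates Aurora A, went from 8085 to 5483 and ASPM from 2421 to 1513, changes of -0.56 and -0.68. ECT2 changed by -0.72 (SE 0.13), and the condensin genes NCAPG, NCAPH and SMC2 by -0.54, -0.89 and -0.73. TTK changed by -0.78 (SE 0.13). PLK1 went from 2240 to 1340 (log2 change -0.74, SE 0.10) and AURKB from 880 to 619 (log2 change -0.51, SE 0.14). BIRC5, which encodes survivin of the chromosomal passenger complex, went from 1801 to 1194 (log2 change -0.59, SE 0.11), and its partner INCENP changed by -0.63 (SE 0.18). Besides AURKA and PRC1, 11 genes were not listed at this transition: CDC25B, CDC25C, PLK4, CENPA, KIF14, KIF23, KIF2C, ANLN, RACGAP1, NCAPD2 and SMC4.

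**Figure D2:**
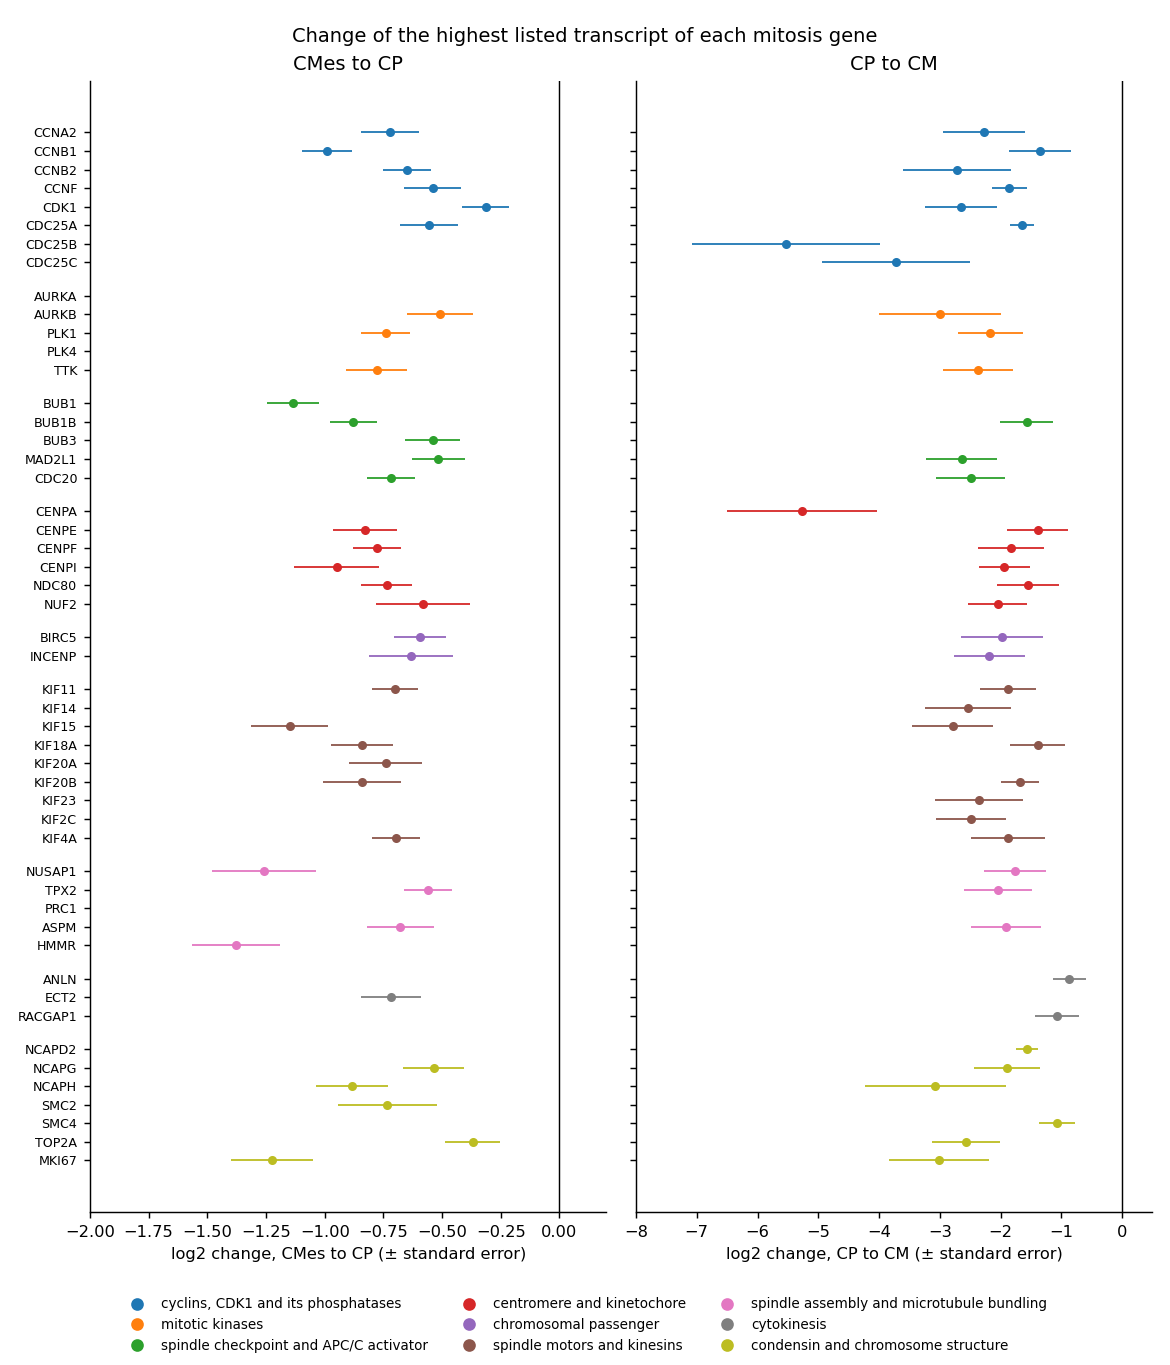
Log2 change of the highest listed transcript of each of the 50 mitosis genes from CMes to CP (left) and from CP to CM (right), with the standard error as a bar and colors for the 9 roles; the horizontal scales differ, and a gene without a point was not listed. All 37 points on the left lie between -1.38 and -0.31 and all 41 on the right between -5.53 and -0.87.

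From CP to CM, 41 of the 50 genes fell and 0 rose. All 63 listed member transcripts were lower, and all were past the fold limit. Set against the annotated member transcripts they are 14.4%. On the unlike base of all tested transcripts, 8.42% were listed lower, 10.1% listed higher, 6.99% called lower and 8.25% called higher. Of the members listed anywhere 85.4% fell, beside 30.4% of all such genes. The median change was -2.04, from -5.53 to -0.87, and over all 3605 genes listed lower it was -1.51. The RNA is from bulk cultures, so fewer dividing cells and less mitotic RNA in each dividing cell cannot be told apart. CMs, unlike CPs, had passed lactate selection, and its part cannot be told apart from that of the stage.

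All 8 genes of the cyclin and CDK1 group fell. CDK1 went from 1884 to 300 estimated counts (log2 change -2.65, SE 0.59, q = 9.83e-05), CCNA2 from 1316 to 272 (log2 change -2.27, SE 0.67) and CCNB2 from 1207 to 183 (log2 change -2.72, SE 0.88). CCNB1 went from 691 to 270 in transcript ENST00000256442.10 (log2 change -1.35, SE 0.51, q = 0.0438). Transcript ENST00000506572.5, which spoke for CCNB1 from CMes to CP, was not listed. The changes best separated from their error were those of CDC25A, which acts at entry into S phase as well as mitosis (927 to 296, log2 change -1.65, SE 0.20, q = 2.27e-15), and CCNF, the substrate receptor of a ubiquitin ligase (827 to 228, log2 change -1.85, SE 0.29, q = 5.71e-09). CDC25C went from 352 to 26.2 (log2 change -3.72, SE 1.22). CDC25B was listed through a transcript without a coding sequence, ENST00000467519.5, at 66.1 estimated counts in CPs and 0.942 in CMs.

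Kinases and checkpoint genes followed. AURKB went from 548 to 68.3 estimated counts (log2 change -2.99, SE 1.00), PLK1 from 1187 to 263 (log2 change -2.17, SE 0.54) and TTK, the kinase that starts checkpoint signalling, from 845 to 163 (log2 change -2.37, SE 0.57). CDC20 went from 1458 to 259 (log2 change -2.49, SE 0.56), MAD2L1 from 729 to 116 (log2 change -2.64, SE 0.59) and BUB1B from 1433 to 482 (log2 change -1.57, SE 0.44). BUB1, the member with the clearest earlier falls, was not listed from CP to CM, and neither was BUB3.

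Among structural proteins, NCAPD2 of condensin I had the largest change relative to its error of any member, from 4080 to 1376 estimated counts (log2 change -1.57, SE 0.18, q = 1.16e-16). MKI67 went from 3131 to 387 in transcript ENST00000368654.8 (log2 change -3.01, SE 0.81) and TOP2A from 9040 to 1524 (log2 change -2.57, SE 0.55, q = 4.93e-05). SMC4, which also serves condensin II, went from 2368 to 1128 (log2 change -1.07, SE 0.30). All 6 centromere and kinetochore genes fell, with CENPF going from 3979 to 1120 (log2 change -1.83, SE 0.54) and CENPI from 204 to 52.7 (log2 change -1.94, SE 0.42). NDC80, NUF2 and CENPE changed by -1.55, -2.05 and -1.39. CENPA, the histone H3 variant that marks centromeres, was listed at 66.3 in CPs and 1.24 in CMs, through a transcript without a coding sequence. Of 9 kinesins 8 fell, among them KIF20B from 1073 to 334 (log2 change -1.68, SE 0.31) and KIF11 from 2011 to 547 (log2 change -1.88, SE 0.46). The other 6, KIF14, KIF15, KIF18A, KIF23, KIF2C and KIF4A, changed by -2.79 to -1.39. TPX2 went from 4855 to 1178, ASPM from 1340 to 357 and NUSAP1 from 219 to 64.1 in the transcript that spoke for it, changes of -2.04, -1.91 and -1.76. That NUSAP1 transcript has no annotated coding sequence. The coding transcript ENST00000559596.6, which spoke for NUSAP1 from CMes to CP, went from 373 to 30.9 (log2 change -3.58, SE 1.29). The condensin genes NCAPG and NCAPH changed by -1.90 and -3.07, and another coding NCAPH transcript, ENST00000240423.9, by -1.25 (SE 0.31). The passenger genes BIRC5 and INCENP went from 1057 to 269 (log2 change -1.97, SE 0.68) and from 312 to 68.3 (log2 change -2.18, SE 0.59). INCENP was listed through ENST00000278849.4, and ENST00000394818.8, which spoke for it from CMes to CP, was not listed. Of the cytokinesis genes, ANLN, the scaffold of the contractile ring, had the smallest change of the 41 and went from 633 to 347 (log2 change -0.87, SE 0.27) and RACGAP1 from 587 to 279 (log2 change -1.07, SE 0.36). Besides AURKA, PRC1, BUB1 and BUB3, the genes PLK4, KIF20A, HMMR, ECT2 and SMC2 were not listed.

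The replicates spread widely at this transition. The median residual standard deviation of the 41 genes was 0.668 on the log2 scale, against 0.229 for 4980 other listed genes of similar level and 0.258 for the 2106 of those that fell. From CMes to CP it was 0.121 for the members and 0.145 for other genes of similar level. From CP to CM, 31 of the 41 members had a biological variance above the trend that Sleuth fits to transcripts of their level, as had 39.6% of the other genes. Which libraries differed cannot be read from the tables. When a t distribution (4 degrees of freedom) replaced the normal one, 0 member genes stayed called at any transition. From CP to CM 57 of the 63 member transcripts had an unadjusted p under 0.05 by it, but the q-value limit on the same statistic largely ensures this. The smallest adjusted p of a member there, by Benjamini-Hochberg, was 0.0623. That test called 144 transcripts lower and 417 higher over the whole table.

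Several minor transcripts were listed at or near 0 in CMs. AURKB transcript ENST00000316199.10 had 47.3 estimated counts in CPs and was listed at 0 in CMs, and NUSAP1 transcript ENST00000560747.5 had 57.8 and was listed near 0. CENPE transcript ENST00000265148.7 had 183 estimated counts in CPs and 0.0516 in CMs, while ENST00000380026.7 went from 803 to 306 (log2 change -1.39, SE 0.51). The former encodes 2701 residues in GENCODE 44 and the latter 2580. MKI67 was listed through ENST00000368653.7 (2896 residues) at M to CMes and at CMes to CP, and through ENST00000368654.8 (3256 residues) at CP to CM. Reads shared between transcripts of a gene were divided by Kallisto, and a change of 1 transcript can reflect that division. KIF15 appears under pairs of identifiers with identical values, ENST00000326047.9 and ENST00000627272.3 being the main pair. The second is absent from the primary annotation, so reads of the 2 copies cannot be told apart.

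The tables could be joined through the stage they share, since the level of a transcript at that stage differed between tables by a nearly constant offset. On the joined scale, 35 transcripts of 31 genes had a level at both CMes and CM. A CM level is known only for transcripts listed from CP to CM, where every listed member transcript was lower. That a CM level is below the CP level thus follows from that result. BUB1, BUB3, ECT2, HMMR, KIF20A, PLK4 and SMC2 were not listed there and have no CM level. The median change from CMes to CM was -2.61, from -9.61 for the CENPE transcript above to -1.43 for SMC4. TOP2A stood at 13.79 (iPSC), 13.27 (M), 13.58 (CMes), 13.21 (CP) and 10.64 (CM) on the log2 scale. CDK1 stood at 11.20, 10.75, 11.26, 10.95 and 8.30 in the same order, and CENPF at 13.01, 12.55, 12.80, 12.03 and 10.20. ASPM stood at 11.47, 10.74, 11.14, 10.46 and 8.55, the listed NCAPG transcript ENST00000514176.5 at 9.49, 10.06, 9.83, 8.85 and 5.49, and KIF15 at 9.13, 9.67, 9.16, 8.02 and 5.22. In these 6 genes, the ones with a level at all 5 stages and so listed as lower from CP to CM, the CM level was the lowest. TOP2A, CDK1 and CENPF kept within 1 log2 unit over the earlier stages, and KIF15 and NCAPG had already moved further by CP. CDK1 in CMs had 12.8% of its level at CMes, TOP2A 13.0%, PLK1 13.3%, CDC20 10.8%, AURKB 8.82% and SMC4 37.1%. BUB1 stood at 11.99 (iPSC), 12.39 (M), 11.43 (CMes) and 10.29 (CP), so it rose before it fell. Falls from M on were not particular to it: BUB1B stood at 12.01, 11.43 and 10.55 at M, CMes and CP, and AURKB at 10.37, 9.68 and 9.17.

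**Figure D3:**
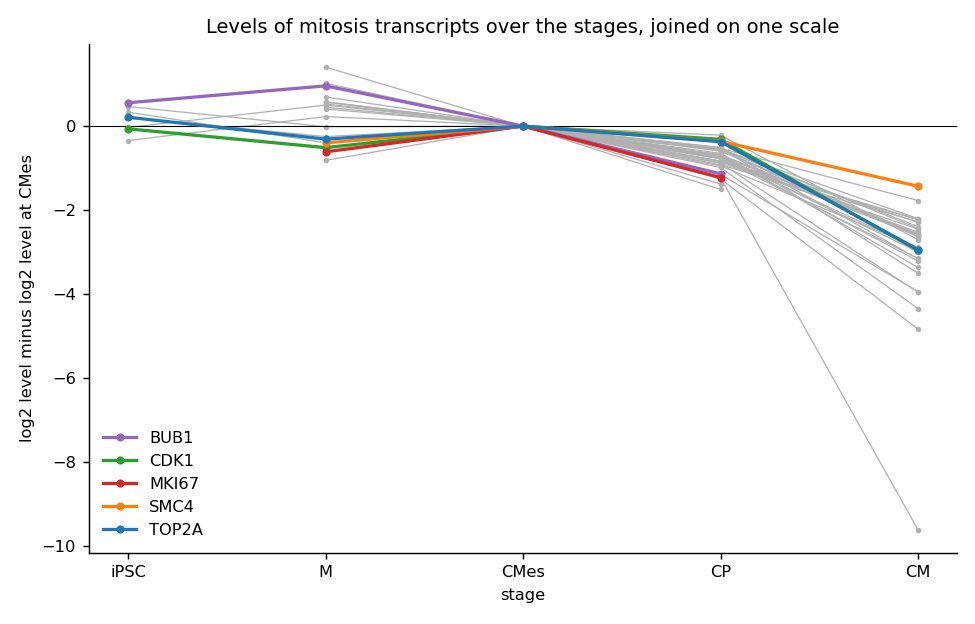
Log2 level minus the log2 level at CMes (vertical axis) at the 5 stages (horizontal axis) for 40 mitosis transcripts of 35 genes with a known level at CMes and at least 2 other stages; each line is 1 transcript, and 5 genes are colored. TOP2A and CDK1 stay within 1 unit of CMes up to CP and lie at -2.94 and -2.96 at CM. SMC4 falls least of those with a CM level, which only transcripts listed from CP to CM have.

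Genes of neighbouring processes were counted in the same way. Of 99 other mitosis genes 53 fell and 5 rose from CMes to CP, and 55 fell and 10 rose from CP to CM. Those that rose from CP to CM included WEE1, the kinase that restrains CDK1 (log2 change 1.30, SE 0.36), and FZR1, the activator of the anaphase-promoting complex outside mitosis (log2 change 0.51, SE 0.18). NEK7, SKA2 and ANAPC13 rose as well, by 2.04 (SE 0.13), 1.13 (SE 0.15) and 1.04 (SE 0.14). Of 55 genes of the DNA replication machinery 48 fell and 0 rose from CMes to CP, with a median of -0.70 close to that of the members, and 44 fell and 4 rose from CP to CM, with a median of -1.48. One of the 4 was a weak transcript of GMNN, whose product geminin blocks origin licensing (3.15 to 38.7 estimated counts, log2 change 3.43, SE 1.23). Of 21 regulators of cell cycle transcription, 6 fell and 2 rose from CMes to CP and 9 fell and 6 rose from CP to CM. MYBL2, the activator of late cell cycle genes, went from 3596 to 326 estimated counts from CP to CM (log2 change -3.46, SE 0.61, q = 2.83e-07). FOXM1 went from 428 to 70.5 in transcript ENST00000627656.2 (log2 change -2.59, SE 0.75), while ENST00000361953.7 spoke for it from CMes to CP. CDKN1A, the inhibitor p21, went from 583 to 8048 (log2 change 3.79, SE 0.22, q = 5.57e-63), and RB1, the retinoblastoma protein, from 813 to 1946 (log2 change 1.26, SE 0.14). Among the MuvB subunits, LIN9 and LIN37 rose, by 1.32 (SE 0.35) and 1.46 (SE 0.32), and RBBP4, which other chromatin complexes share, fell by 0.44 (SE 0.14). E2F8 rose as well (log2 change 1.75, SE 0.47), and so did a weak TFDP2 transcript. RBL2 fell in a weak transcript, ENST00000562850.1 (62.1 to 16.1 estimated counts, log2 change -1.92, SE 0.63). E2F1, E2F2, E2F3, E2F5 and E2F7 changed by -1.71 to -0.91.

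Marker lists of cell types moved at the same transition. All 16 cardiomyocyte markers rose from CP to CM, and their summed level went from 35848 to 805784 estimated counts. Of 11 pluripotent markers 9 fell, their sum going from 46421 to 867, with POU5F1 and ZSCAN10 at most at 1 estimated count in CMs. Of 13 mesenchymal and fibroblast markers 10 fell and 2 rose, with sums of 295650 and 74935. FN1 alone made up 236822 and 59274 of these sums. COL1A1, which rose, entered through ENST00000507689.1 (45.4 to 135 estimated counts) and not through the transcript that spoke for it from CMes to CP. Of 15 endoderm and epithelial markers 11 fell, of 9 endothelial markers 4 fell, and all 6 smooth muscle markers rose. The part of these cell types in the changes of the mitosis genes was not tested. From CMes to CP, 11 cardiomyocyte and 3 smooth muscle markers rose and 0 fell, and 9 pluripotent markers fell and 0 rose. Of the mesenchymal and fibroblast markers 10 rose and 1 fell, of the endoderm and epithelial markers 12 rose and 1 fell, and of the endothelial markers 1 rose and 2 fell.

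The UBE2B-/- lines asked whether CMs without UBE2B differ from WT CMs. As a check of the labels, UBE2B was listed lower in the table of UBE2B-/-1, in transcript ENST00000499038.2 alone (log2 change -1.91, SE 0.53, q = 0.0113), and was not listed in that of UBE2B-/-2. Very few mitosis transcripts were listed in either. In UBE2B-/-1, 2 genes were called higher and 2 lower, against 2.18% of all tested transcripts higher and 1.72% lower. In UBE2B-/-2, 2 genes were called higher, in 3 transcripts, and 0 lower, against 2.46% and 1.53%. Of the members listed anywhere, 4.17% were higher in each line, beside 11.4% and 12.8% of all such genes.

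CDC25B transcript ENST00000467519.5 (chromosome 20 of GRCh38, 3795739 to 3805237, with 16 exons and no annotated coding sequence) had a mean of 1.02 estimated counts in WT CMs, 51.4 in UBE2B-/-1 and 61.6 in UBE2B-/-2. Its log2 changes were 5.10 and 5.36 (SE 1.65, q = 0.0454 and 0.0310). This is the transcript that had stood at 66.1 in CPs. BIRC5 transcript ENST00000301633.8 (chromosome 17, 78214186 to 78225636), which encodes a survivin form of 165 residues, was listed near 0 in WT CMs and had means of 45.0 in UBE2B-/-1 and 25.7 in UBE2B-/-2 (q = 0.00678 and 0.0241). A form of 137 residues, ENST00000374948.6, was listed in UBE2B-/-2 alone (log2 change 4.44, SE 1.46, q = 0.0499). The main BIRC5 transcript, ENST00000350051.8 with 142 residues, was not listed in either line. In UBE2B-/-1 alone, NUSAP1 transcript ENST00000560177.5 (log2 change -5.55, SE 1.79, q = 0.0431) and SMC4 transcript ENST00000497984.5, 563 bases with no annotated coding sequence (log2 change -6.11, SE 1.77, q = 0.0182), were lower.

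All of these are transcripts with a mean of 4.79 to 16.5 estimated counts over the 9 CM libraries, and the technical standard deviation in the authors' fit was 0.858 to 1.79 on the log2 scale. The tables of both lines share the 3 WT libraries, so a low WT value enters both changes. The change in UBE2B-/-1 minus that in UBE2B-/-2, which does not depend on WT, was -0.26 (SE 1.65) for CDC25B and 0.79 (SE 1.71) for BIRC5 transcript ENST00000301633.8. Over the 1992 transcripts listed for both lines, 0 differed between the lines at a Benjamini-Hochberg adjusted p under 0.05 and 29 at an unadjusted p under 0.05, by the Wald statistic. This test covers only transcripts that differed from the same WT libraries in both lines, so it leaves out those listed in a single line, such as the NUSAP1 and SMC4 transcripts. With WT near 0, the size of these changes depends on the pseudocount. With a t distribution 0 members stayed called in either line, and over all genes 0 transcripts were called lower and 0 higher in each line.

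Few transcripts that stood for the members from CP to CM were listed in the lines. Of the 41 transcripts that fell from CP to CM and spoke for their gene, 1 was listed in each line, that of CDC25B. Their median WT level was 298 estimated counts. From the variance trend in the tables, a change of such a transcript had to reach about 0.75 on the log2 scale (1.69-fold) at the median to be listed, and from 0.57 for TOP2A to 4.22 for CDC25B. These are values read from a fitted trend at the WT level and not bounds. They leave out technical variance and any spread of a transcript above the trend. From CP to CM, with the same WT CM libraries, 31 of the 41 members had a biological variance above the trend of that fit. For MKI67, CDK1 and PLK1, differences well under these sizes would not have been detectable, and larger ones may also have gone unlisted.

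Beside this, FOXM1 was higher in UBE2B-/-1 (log2 change 2.09, SE 0.65, q = 0.0325), and LIN9 was lower in both lines (log2 changes -1.96 and -1.36, SE 0.44). Of the replication genes, 3 were higher and 1 lower in UBE2B-/-1 and 1 was higher in UBE2B-/-2. A transcript of CLSPN, the checkpoint mediator claspin, with a mean of 12.1 estimated counts, was among them in both lines (log2 changes 7.15 and 6.26, SE 1.91). Of the other mitosis genes, 5 were higher and 10 lower in UBE2B-/-1, and 6 were higher and 6 lower in UBE2B-/-2. WEE1 was lower in both (log2 changes -1.16 and -1.19, SE 0.34), in a transcript other than the one that rose from CP to CM. Markers of other cells moved in the same tables. Cardiomyocyte markers were lower for 9 of 16 genes in UBE2B-/-1 and 12 of 16 in UBE2B-/-2, and 6 and 8 of 13 mesenchymal and fibroblast markers were higher, none lower. Endoderm and epithelial markers were higher for 4 of 15 and 2 of 15 genes, with 1 lower in UBE2B-/-2, 1 and 2 of 9 endothelial markers were higher, and 2 of 6 smooth muscle markers were lower in each line. The part of these cells in the listed mitosis transcripts was not tested.

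**Figure D4:**
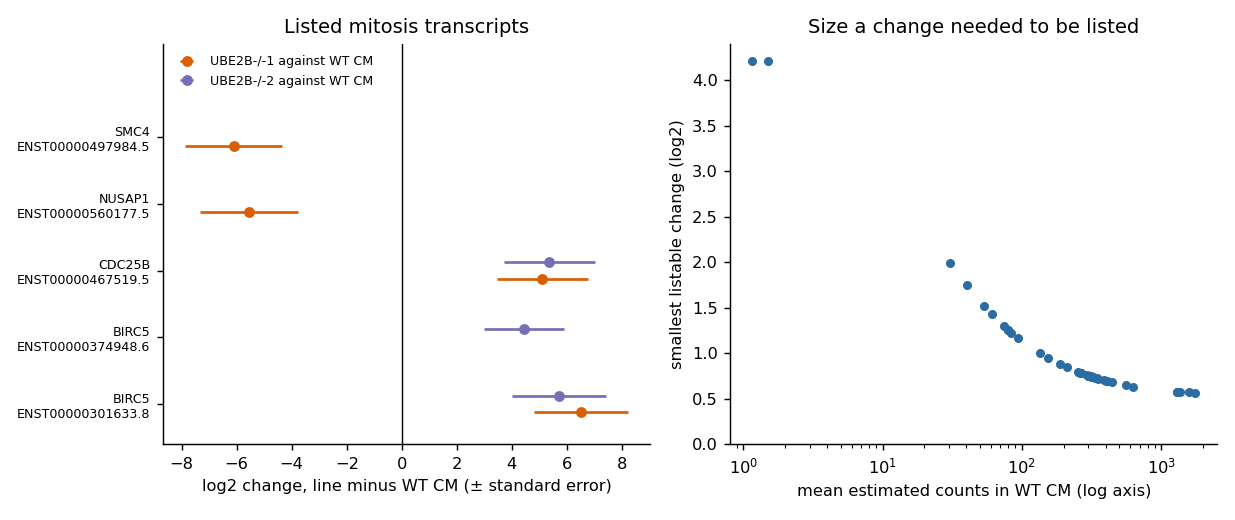
Left, log2 change against WT CMs with its standard error for the 5 mitosis transcripts listed in UBE2B-/-1 (orange) or UBE2B-/-2 (purple). Right, the smallest listable change (log2) by the fitted variance trend alone, against the mean estimated counts in WT CMs (log axis). The 41 transcripts are those that spoke for their gene from CP to CM, and the values run from 0.57 at the highest level to 4.22 at the lowest. Technical variance and spread above the trend are left out, so larger changes may also have gone unlisted.

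**Figure D5:**
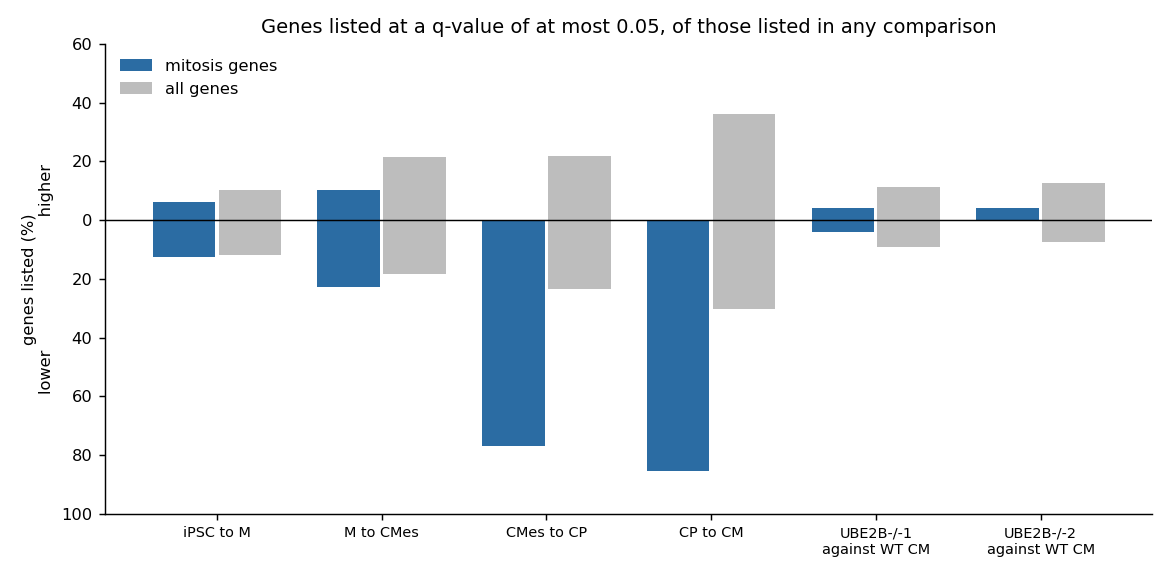
Percent of the 48 mitosis genes (blue) and of all 11851 genes (gray) listed in any comparison that were lower (down) or higher (up) in each of the 6 comparisons, by the transcript that speaks for the gene. The mitosis genes reach 77.1% and 85.4% lower at the later transitions, with none higher, and stay at or under 4.17% in either direction in the lines.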

How the data were processed

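RNA-seq libraries were grouped by their labels: 15 WT libraries of 5 stages and 6 UBE2B-/- CM libraries. Per the authors' methods, reads were quality-trimmed (FASTX-Toolkit), transcript abundances came from kallisto against hg38, and each comparison was fitted in Sleuth. The deposited tables hold p-values and q-values of the Wald test, the effect, its standard error and the mean on a natural log scale (estimated counts plus 0.5), and variance estimates, which are scores from the authors' fit. These are the results of the authors' own comparisons, and all values in this text derive from them. There were 0 columns of values per library, so depth is unknown.

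Log2 changes, group means, numbers tested, residual spread and the difference between the lines were computed in Python 3.11.15 with pandas 2.3.3 and scipy 1.17.1. The standard errors and p-values of every listed transcript were recomputed from the deposited columns and matched, and the recovery of the number of tests was tested on simulated data. Calls needed an effect of 0.585 or more in size and a q-value up to 0.05. Transcripts and gene positions came from GENCODE 44, promoters from RefSeq.

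Named were the 5 called genes with the largest ratio of change to error in each direction and comparison, every member called in a line, and 12 fixed cell cycle genes; others were named to account for all members. The lists were other mitosis genes, DNA replication machinery, regulators of cell cycle transcription and 6 lists of cell type markers. Members and lists were chosen with earlier results of these data known. Alternatives were other fold and q-value limits, a t distribution, a level filter, coding transcripts only, another transcript per gene and centring.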

Additional observations from a re-analysis of the deposited data

How the results depend on the processing

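Centring took away the median log2 change of the listed transcripts, which was -0.47, 0.57, 0.40 and 0.63 at the 4 transitions and 0.73 and 0.87 in UBE2B-/-1 and UBE2B-/-2. No paired analysis was possible because the tables hold no value per library, and leaving out single replicates was not run for the same reason. Of 116 values recomputed under alternatives, 80 stayed the same or within 1.5 times, 36 moved by more and 0 reversed. From CP to CM the 41 lower genes stayed the same or within 1.5 times except with a t distribution, which left 0. A t distribution also left 0 genes at M to CMes (lower and higher), at iPSC to M (higher), at CMes to CP (lower), in each line (lower and higher) and in both lines. In each of these it left 0 transcripts over all genes as well. From CMes to CP the 13 lower genes became 29 with a 1.5-fold limit on the natural-log scale, 37 with no fold limit and 35 when centred on the median of listed transcripts. From iPSC to M, the lower genes became 1 with that 1.5-fold limit and 6 with none, and the higher gene became 3 with no fold limit or with centring and 0 at a q-value limit of 0.01 or with protein-coding transcripts only. From M to CMes, the 3 lower genes became 11 with no fold limit or with centring, and the higher gene became 2 with the 1.5-fold limit, 5 with none, and 0 at a q-value limit of 0.01, a mean of at least 10 estimated counts or protein-coding transcripts only. In UBE2B-/-1 the 2 lower genes became 0 at a q-value of 0.01 or a mean of at least 10, and 1 with coding transcripts only, and the 2 higher became 1 under each. In UBE2B-/-2 the 2 higher genes, and the 2 transcripts higher in both lines, became 0 at a q-value of 0.01 and 1 with coding transcripts only. Those in both lines became 1 at a mean of at least 10. The effect of other library depths was not tested.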
